A study of Mus musculus with 10 samples.

Results

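The comparison set 3 Ep400 knockout (ko) clones of O9-1 cells against the unedited line and covers all genes with enough reads for a test. O9-1 is a mouse stem cell line of cranial neural crest origin. Polyadenylated RNA was sequenced, reads were counted per gene, and 13836 of the 43346 genes counted passed the filter of edgeR (filterByExpr), in 7 of the 10 libraries of the study. The wildtype group held 4 biologically independent samples of unedited cells (WT/1 to WT/4), and the other group held 3 clones of the same line (clones 1 to 3) in which CRISPR/Cas9 had been directed to exon 15 of Ep400. The labels name no treatment for either group. As the study describes its cells, the line is tetraploid, clone 1 carried frameshifts in every allele, and clones 2 and 3 each kept allele copies with in-frame deletions of a few residues at the ATP-binding site. Each ko library is thus a single clone, and the p-values measure the spread between clones and between wildtype samples.

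Ep400 is a Swi/Snf-type ATPase that exchanges histone H2A for the variant H2A.Z in nucleosomes, and it does so within the Tip60/Ep400 complex, where Kat5 (Tip60) acetylates histones H2A and H4. H2A.Z lies mainly at promoters and enhancers. Cranial neural crest cells give rise to most of the bone, cartilage and connective tissue of the face, and inherited defects of ribosome production are known to disturb their survival and to cause craniofacial malformation.

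The target lies in exon 15 of 52 of transcript Ep400-201 on the minus strand of chromosome 5 (GRCm38, the build named mm10, with GENCODE M21 annotation), and this coding exon spans 178 bases. The stretch below covers 114 of them at chr5:110719110-110719223 and is printed on the coding strand, because the in-frame deletions of clones 2 and 3 fall there. Capitals mark the codons of the nucleotide-binding loop (Walker A motif) of the ATPase, and the coding position to which the guide was designed is base 40 of the run, 31 bases before the capitals.
Ep400 exon 15, target region: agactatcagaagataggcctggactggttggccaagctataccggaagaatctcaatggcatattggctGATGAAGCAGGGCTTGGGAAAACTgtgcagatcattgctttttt

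Libraries held 30968945 to 44776201 counted reads in wildtype cells and 32950540 to 41231337 in the ko clones. Mitochondrially encoded genes took 1.2% to 2.43% and 1.58% to 3.24% of them, respectively. WT/3 stood apart from the other wildtype samples: of 11002 genes with a mean normalized count of at least 100, 429 lay more than 2-fold above or below all other wildtype libraries, compared to 219 for WT/2, 16 for WT/4 and 1 for WT/1. Among the clones the same count was 359, 437 and 724. Genes of chromosome 16 were lower in WT/3, with a median log2 difference from the wildtype mean of -0.31, and genes of chromosome 19 were higher in all clones (0.28, 0.25 and 0.17). Results that rest on WT/3 are given with and without it, and the part of these shifts in single genes was not tested. Of 21 neural crest transcription factors, 5 (among them Sox10, Foxd3, Pax7 and Zic1) had no read in any of the 7 libraries, whereas Twist1 (2660 ± 325 normalized counts in wildtype cells, SD, n = 4), Sox9 (2487 ± 435) and Tfap2a (1271 ± 396) were present. Of 39 Hox genes, which cranial crest of the anterior face lacks, 31 had no read and 38 stayed under 10 normalized counts everywhere.

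Normalized counts are reads divided by the effective library size (TMM) and multiplied by its mean over the 7 libraries. Values of single libraries are given in the order WT/1, WT/2, WT/3 and WT/4, and then clones 1, 2 and 3. Fold changes are log2 values of ko over wildtype with their SE from edgeR's quasi-likelihood test, and p-values are adjusted over all 13836 genes by the Benjamini-Hochberg procedure. A gene was called raised or lowered at an adjusted p of at most 0.05, a log2 fold change of 1 or more in size, and a group mean above 100 normalized counts. Over all tested genes 4.12% were raised and 2.3% lowered, which is the base for counts of list members. These counts are those of edgeR. Where they are 0 in a direction, DESeq2 and limma-voom also gave 0, and 0 to 7 members had an unadjusted p under 0.05 in that direction, unless stated. All fits were repeated with each library left out in turn, and where this ended a call, the libraries concerned stand in parentheses behind the gene.

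Ep400 itself, the targeted gene, had normalized counts of 5997, 5937, 5923 and 6235 in wildtype cells and 2066, 2317 and 2255 in the clones. All clones lay below the wildtype range and close to each other, with a log2 fold change of -1.44 ± 0.12 (adjusted p = 0.0012). Of the 19 tested members of the Tip60/Ep400 complex, Ep400 alone was lowered and 0 were raised (6.42% of all tested genes changed). Without clone 1, 1 member was raised and 2 were lowered. A further 5 members passed the adjusted p but not the fold limit. Among these, 4 subunits were higher in the clones: the scaffold proteins Epc1 (log2 fold change 0.84 ± 0.16, adjusted p = 0.0133) and Epc2 (0.75 ± 0.18, 0.0308), Meaf6 (0.59 ± 0.15, 0.0345), and Ing3 (0.88 ± 0.24, 0.0451), which reads methylated histone H3. The chromodomain relative Morf4l2, at -0.77 ± 0.17 (0.0232), was lower. Kat5, the acetyltransferase of the complex, had 2170, 1844, 1978 and 2131 normalized counts in wildtype cells and 2436, 2988 and 2605 in the clones. Every clone was above every wildtype sample, but the difference did not pass the test (0.40 ± 0.13, adjusted p = 0.0768). Among 12 genes for H2A.Z and the related SRCAP complex 0 passed all limits with edgeR, compared to 1 lowered each with DESeq2 and limma-voom, and 1 had an unadjusted p under 0.05 in the higher and 4 in the lower direction. Without clone 1, 2 of them were lowered, and 1 without clone 2. The H2A.Z chaperone Anp32e was at -0.76 ± 0.19 (adjusted p = 0.0335).

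In total 888 genes changed: 570 (4.12%) were raised and 318 (2.3%) were lowered in the ko clones. By adjusted p alone, 1107 genes (8%) were higher and 792 (5.72%) lower. The median log2 fold change over all tested genes was 0.04. Raised genes had a median of 166 normalized counts in wildtype cells, compared to 966 for all tested genes, and 42 of them had a wildtype mean under 10. Lowered genes stood at a median of 1370 in wildtype cells. The limit on the mean adds to this contrast, since a raised gene can pass it through the clones alone and a lowered gene passes it through wildtype cells. Together the raised genes took 1.81% to 2.31% of normalized counts in wildtype libraries and 5.48% to 6.7% in the clones, and the lowered genes took 3.11% to 3.54% and 1.1% to 1.57%. Changes of more than 4-fold were found in 254 raised and 110 lowered genes, and changes of more than 16-fold in 73 and 29.

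In 550 raised genes all clones lay above the wildtype range, and in 315 lowered genes all clones lay below it; over all tested genes these shares were 16.1% and 14.1%. Since the calls ask for a shift of the clones as a group, the values of single clones are a description: the median log2 difference of the raised genes from the wildtype mean was 1.6, 1.75 and 2.07 in clones 1, 2 and 3, and that of the lowered genes was -1.5, -1.61 and -1.67. Clone 1, with frameshifts in every allele, was the least moved clone for 237 raised and 146 lowered genes. Clone 2 was the least moved for 211 and 70, and clone 3 for 122 and 102. A link to the alleles was not tested. Without WT/3, 556 genes were raised and 291 lowered, and 457 and 259 of these were also called with all 7 libraries. The calls depended on the number of libraries: 239 raised and 154 lowered genes were called in all 7 fits that left out 1 library, and the raised count fell to 318 without WT/4 and 322 without WT/1. The lowered count fell to 205 without WT/2 and 211 without WT/1. Without clone 1, 1021 genes changed.

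**Figure D1:**
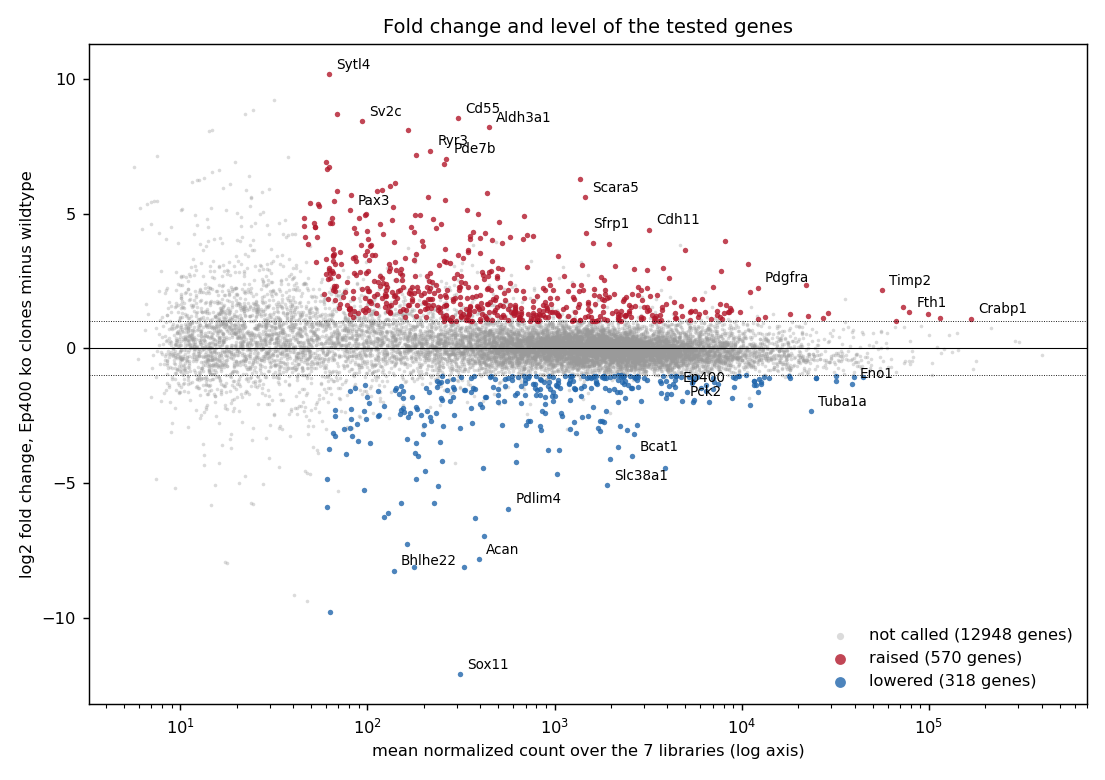
Log2 fold change of the ko clones over wildtype against the mean normalized count of the 7 libraries (log axis) for 13836 genes; raised genes are red, lowered genes blue, and dotted lines mark the fold limit. The 570 raised genes reach higher fold changes and lie at lower levels than the 318 lowered ones, which extend to abundant genes such as Tuba1a and Eno1.

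The strongest increases concerned genes that were almost silent in wildtype cells. Pde7b, a cAMP-degrading phosphodiesterase, had 6.03, 0, 5.92 and 5.84 normalized counts in wildtype cells and 557, 601 and 670.2 in the clones. Levels in the clones were close to each other and far above those of any wildtype sample (log2 fold change 7.04 ± 0.59, adjusted p = 0.0012). Ryr3, a calcium release channel of the endoplasmic reticulum, went from 4.82, 0, 1.97 and 5 to 653, 429 and 427 (7.33 ± 0.63, adjusted p = 0.0012). Aldh3a1, an aldehyde dehydrogenase that detoxifies products of lipid peroxidation, had 4.82, 4.37, 3.94 and 0.834 in wildtype samples and 1205, 322 and 1566 in the clones. Clone 2 was the lowest of the clones for this gene, yet far outside the wildtype range (8.21 ± 0.69, adjusted p = 0.0012).

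Sytl4, a Rab27 effector in granule exocytosis, had no read in the 4 wildtype libraries and 230.2, 11.8 and 193 normalized counts in the clones. Against a floor of 3 counts per library this corresponds to at least 46.9-fold more (adjusted p = 0.0185). Sv2c, a glycoprotein of synaptic vesicles, rose from at most 1.09 to 263, 299.5 and 88.4 (8.43 ± 0.78). The complement inhibitor Cd55 reached 646, 100.2 and 1376 from at most 3.28 (8.54 ± 1.03). Clone 2 was the lowest and clone 3 the highest for this gene, and the clones spread more widely than for Pde7b. Others of this group were Pamr1 (8.10), a secreted protein with a peptidase-like domain, Slc7a2 (7.17), a transporter of arginine and lysine, Dmxl2 (6.83), which serves the vesicular proton pump, the cadherin-related Cdhr1 (6.72), the netrin relative Ntng2 (6.66), the endocytosis factor Reps2 (6.93), the inhibitory receptor Lilrb4 (6.04) and the carboxylesterase Ces1a (6.13). With 1 library left out, calls were lost for Sytl4 (clone 1 or clone 3), Ntng2 (clone 3), Reps2 (clone 3) and Ces1a (WT/1, WT/4 or clone 3), through the adjusted p or through the limit on the mean, and the highest adjusted p per gene was 0.0108 to 0.0555. Sytl4 rests on clones 1 and 3, since clone 2 was close to the floor.

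**Figure D2:**
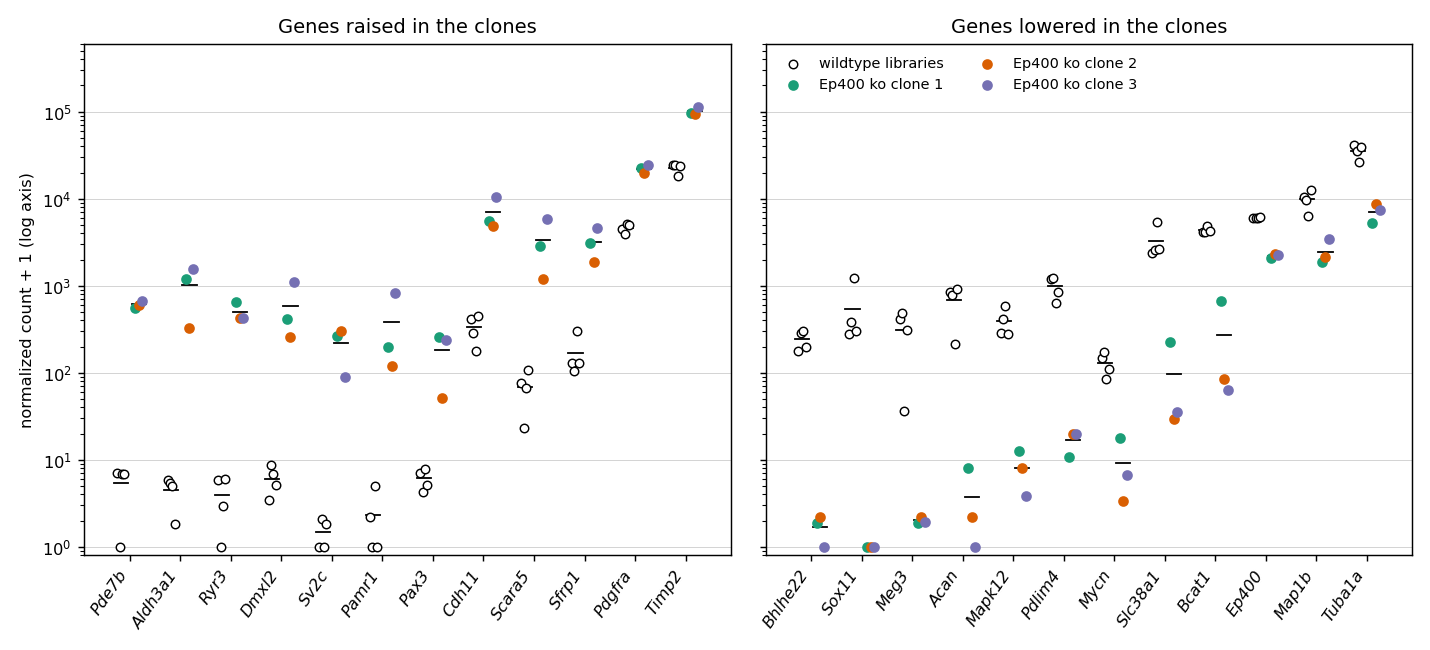
Normalized counts plus 1 (log axis) of 12 raised and 12 lowered genes in each library; open circles are the 4 wildtype samples, coloured circles the 3 clones, and short lines the group means. Wildtype and clone points do not overlap for any of the 24 genes, and Sox11 is at 0 counts in all clones. The genes were picked from those called, so the lack of overlap is a description.

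Abundant genes also rose. Timp2, an inhibitor of matrix metalloproteinases, had 24325, 24264, 18029 and 23451 normalized counts in wildtype cells and 97048, 94246 and 112370 in the clones (2.17 ± 0.17, adjusted p = 0.0012). Pdgfra, the receptor tyrosine kinase of facial mesenchyme, had the smallest p among the raised genes: it went from 4508, 3972, 5149 and 4995 to 22500, 19616 and 24484 (2.25 ± 0.16, adjusted p = 0.00105). The BMP antagonist Grem1 rose from 40175 ± 5205 to 116750 ± 26025 (SD, n = 4 and 3) and the water channel Aqp1 from 7964 ± 3210 to 40678 ± 7604. The groups did not overlap for any of these genes.

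Further abundant genes were raised less and by amounts that varied between clones. Fibronectin (Fn1) had 135100, 109560 and 204410 in the clones and 61324 ± 11730 in wildtype cells (1.29 ± 0.25), the retinoid-binding protein Crabp1 had 149730, 322750 and 246970 and 112347 ± 29616 (1.09 ± 0.30), annexin A1 (Anxa1) had 119690, 205340 and 167620 and 75924 ± 18899 (1.11 ± 0.26), fibulin-3 (Efemp1) had 36808, 22239 and 59055 and 18130 ± 3495 (1.12 ± 0.31), and the glutathione transferase Gsto1 had 46437, 58836 and 25999 and 17568 ± 1809 (1.32 ± 0.26). Clone 1 was the lowest clone for Crabp1 and Anxa1, clone 2 for Fn1 and Efemp1 and clone 3 for Gsto1. With 1 library left out, calls were lost for Fn1 (clone 3), Gsto1 (WT/4), Crabp1 (all but WT/3 and clone 1), Anxa1 (all but clone 1) and Efemp1 (all but clone 2), with a highest adjusted p per gene of 0.0426 to 0.124.

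Genes with small p and large change further included the matricellular protein Nov (from 281 ± 102 to 4165 ± 1042, log2 fold change 3.89), the lipid phosphatase Ppap2b (2.34), the secreted Srpx2 (5.88), the retinal reductase Dhrs4 (2.17), and the unnamed 6530402F18Rik (5.86), which overlaps its neighbour Ntng2 (clone 3) on the same strand, so that reads of the pair may be shared.

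Transcription factors of facial mesenchyme were raised more often than lowered. Of 31 tested craniofacial homeobox, forkhead and related factors 6 were raised and 0 lowered, with a median log2 fold change of 0.76 compared to 0.04 for all genes. Eya1, a co-activator in pharyngeal arches, had 68.7, 22.9, 3.94 and 71.7 normalized counts in wildtype cells and 124, 1323 and 848 in the clones (4.19 ± 0.96, adjusted p = 0.025). The clones lay above the wildtype range, clone 1 least. The others were the forkhead factors Foxc2 (1.58) and Foxd1 (1.39), the homeobox factors Prrx2 (1.13) and Lhx8 (1.07) and the T-box factor Tbx18 (1.09). This count was unstable: with 1 library left out it ranged from 0 (without WT/4) to 8 (without WT/3), and it was 2 without WT/2 or clone 3 and 3 without WT/1 or clone 2. Calls were lost for Eya1 (all but WT/3 and clone 1), Foxc2 (WT/4), Foxd1 (all but WT/3 and clone 1), Prrx2 (WT/2 or WT/4), Lhx8 (WT/4 or clone 3) and Tbx18 (all but WT/3), at adjusted p of up to 0.114 for Tbx18.

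Of 13 tested neural crest transcription factors 2 were raised and 1 lowered (23.1% changed, compared to 6.42% of all tested genes). Pax3, an early crest and muscle progenitor factor, had 6.03, 3.28, 6.9 and 4.17 normalized counts in wildtype cells and 257, 49.5 and 238 in the clones (5.13 ± 0.64, adjusted p = 0.00369). It was barely expressed in any wildtype sample and lowest in clone 2 among the clones. Tfap2a, a central crest regulator, went from 1271 ± 396 to 3291 ± 1073 (1.37 ± 0.30), and the call depended on the libraries in the fit: Tfap2a (WT/1, WT/4, clone 2 or clone 3). The list had 1 raised gene without WT/1, WT/4 or clone 2, 2 without clone 3 and 3 without WT/3. Snai2 was at 0.86 ± 0.24 (adjusted p = 0.0451), short of the fold limit, Twist1 at 0.45 ± 0.17 (adjusted p = 0.112) and Sox9 at -0.40 ± 0.18 (0.161). Of 14 Krueppel-like factors 3 were raised and 0 lowered, with the same counts or 4 raised when 1 library was left out. They were Klf2 (2.24), Klf4 (1.56) and Klf9 (1.52). Klf4 rose from 2910, 2160, 2718 and 2562 to 9847, 8663 and 4312, and all clones lay above the wildtype range.

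Nuclear receptors, which bind hormones and other lipids, form a list that was assembled after values had been seen. Of 28 tested members 4 were raised and 0 lowered, with a median of 0.47. Among them Nr2f1, an orphan receptor with a role in crest patterning, rose by a log2 of 1.61 ± 0.18. The thyroid hormone receptor Thrb (2.85) and the vitamin D receptor Vdr (1.72) were less stable: Thrb (WT/1, WT/2, clone 2 or clone 3), Vdr (all but WT/3 and clone 2). The count fell to 2 without WT/1 or WT/2. Of 30 chromatin remodelers, Smarca2 (Brm), an ATPase of the BAF complex, was raised (1.54 ± 0.22, adjusted p = 0.00528) and Baz1a, a partner of the ISWI ATPase, was lowered (-1.49 ± 0.29, 0.0149). With 6.67% changed, the list stood near the 6.42% of all tested genes, and its median was -0.36. By adjusted p alone 1 remodeler was higher and 7 were lower. In 14 of the 30 all clones lay below the wildtype range and in 2 above it, compared to 14.1% and 16.1% of all tested genes. Lowered remodelers numbered 2 without WT/2, WT/4 or clone 2 and 3 without clone 3.

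Raised signalling genes came from several pathways, and several of them encode inhibitors. In the list of BMP ligands, inhibitors and Id genes 4 of 19 were raised and 0 lowered (median 0.54), and 3 to 5 with 1 library left out. The 4 raised members made up 21.1% of the list, compared to 4.12% raised among all tested genes. Besides Grem1 these were the BMP-binding antagonist Chrd, which went from 112, 151, 104 and 123 to 831, 515 and 1064 (2.72 ± 0.28), the inhibitory Smad6, from 62.7, 17.5, 14.8 and 31.7 to 390.4, 198 and 392 (3.37 ± 0.54), and the BMP target gene Id1 (1.63), which was less stable: Id1 (all but clone 3). For Chrd and Smad6 all clones lay well above the wildtype range. The Chrd locus overlaps Thpo on the other strand, a gene that was raised too (3.11), and unless counting used strand their reads cannot be told apart.

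Of 28 tested Wnt pathway genes 6 were raised and 0 lowered, with a median of 0.22. This list thus had 21.4% changed, compared to 6.42% of all tested genes. Sfrp1, a secreted Wnt antagonist, had 128, 105, 301 and 129 normalized counts in wildtype cells and 3107, 1877 and 4656 in the clones (4.28 ± 0.45, adjusted p = 0.00228). Nkd2, an intracellular inhibitor of Dishevelled, had 67.5, 90.6, 77.9 and 52.5 and 672, 2125 and 955 (4.12 ± 0.41, 0.00209). In both genes every clone lay far above the highest wildtype sample. The receptors Fzd3 (2.10), Fzd1 (1.22), Fzd7 (1.06) and Fzd8 (1.09) made up the rest. The count fell to 3 without WT/2 and to 4 without WT/1, WT/4, clone 2 or clone 3, 1 member was lowered without clone 2, and calls were lost for Fzd1 (all but clone 1), Fzd7 (WT/2 or clone 2) and Fzd8 (all but WT/3 and clone 1). Frzb (5.61) and Apcdd1 (2.95), Wnt antagonists that were not in the list and were noticed after values had been seen, were raised as well and in all fits with 1 library left out.

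In the Notch pathway, the ligands Dll1 and Jag1 were raised out of 16 tested genes, 0 were lowered (1 with DESeq2), and the median was 0.26. Changed genes made up 12.5% of this list, compared to 6.42% of all tested genes. Dll1 had 194, 325, 469 and 213 normalized counts in wildtype cells and 2048, 2642 and 624 in the clones (2.56 ± 0.49, adjusted p = 0.0138), with clone 3 nearest to the wildtype range. Jag1 had 474, 582, 519 and 554 and 1532, 815 and 1886 (1.41 ± 0.26, 0.0126), here with clone 2 nearest. Both calls held with any 1 library left out, and the list had 4 raised and 1 lowered gene without clone 3. Among 26 FGF, PDGF and ERK feedback genes, Pdgfra, the mesenchymal growth factor Fgf10 (1.38) and the feedback inhibitor Spry4 (1.25) were raised, whereas the ETS factor Etv4 (-1.69) was lowered. Of these 4 genes only Pdgfra kept its call in each fit. It was lost for Fgf10 (WT/1, WT/2, WT/4 or clone 2), Spry4 (WT/1 or clone 2) and Etv4 (all but clone 2), and the list had 1 raised gene without WT/1, 2 without WT/2 or clone 2 and 5 without clone 3.

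Of 49 guidance genes (semaphorins, plexins, Eph receptors, ephrins, Slit and Robo genes) 6 were raised and 1 lowered, with a median of 0.32. The share that changed was 14.3%, compared to 6.42% of all tested genes. The Eph receptor Epha7 rose from 71.1, 37.1, 54.2 and 80.9 to 546, 566 and 1898 (4.04 ± 0.51) and the semaphorin receptor Plxna2 by a log2 of 2.66 ± 0.23. Ephb2 (3.12), Ephb6 (2.01), Sema3c (1.64) and Slit2 (1.26) were the other raised members, and the plexin Plxnb1 (-2.46) was lowered. Calls were lost for Ephb2 (WT/4 or clone 1), Sema3c (WT/1, WT/4, clone 1 or clone 3), Slit2 (WT/1, WT/2, WT/4 or clone 2) and Plxnb1 (WT/2, WT/4, clone 1 or clone 2), and the raised count fell to 4 without WT/1 or WT/4. Of 27 TGF-beta and YAP pathway genes 5 were raised and 2 lowered, with a median of -0.05. They included CCN proteins in both directions: Nov (3.89) and Wisp2 (4.2) were raised and Cyr61 (-1.46) and Wisp1 (-2.97) lowered, each in all fits with 1 library left out.

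Cadherins and matrix regulators were among the raised genes. Of 50 cadherins and protocadherins 8 were raised and 0 lowered (median 0.24). Cdh11, the cadherin of mesenchymal cells, had 417, 284, 176 and 444 normalized counts in wildtype cells and 5574, 4830 and 10594 in the clones (4.40 ± 0.40, adjusted p = 0.00133), and Pcdh17 had 14.5, 55.7, 16.8 and 23.4 and 850.0, 713 and 1047 (4.98 ± 0.47, 0.00158). Both were far above the highest wildtype sample in every clone. The count was 4 without WT/4, 5 without WT/1 or clone 2 and 10 without clone 1. Of 42 matrix proteases and inhibitors 5 were raised and 2 lowered (median 0.36, with 0 lowered without WT/1 and 1 without WT/4), among them Timp3, which went from 2576, 1488, 1288 and 3044 to 12762, 13829 and 19455 (2.87 ± 0.33). In this list 16.7% changed, compared to 6.42% of all tested genes. Collagens did not follow: of 27 tested 0 were raised (1 with DESeq2) and 1 was lowered, and the median was -0.22. That member, Col5a2 (-1.02), was not stable: Col5a2 (all but clone 3). Without clone 3, 4 collagens were lowered, and without WT/3 or clone 1, 1 was raised.

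Genes that handle iron, retinoids, foreign compounds and lysosomal substrates were among the raised ones. Their lists were assembled after values had been seen, apart from those of glutathione S-transferases and NRF2 targets, and their counts are descriptions. Ferritin heavy chain (Fth1) had 50069, 46859, 52961 and 39591 normalized counts in wildtype cells and 139530, 116410 and 104340 in the clones (1.34 ± 0.18, adjusted p = 0.00427), and ferritin light chain (Ftl1) rose by a log2 of 1.01 ± 0.15 (0.00646). Scara5, a receptor that takes up ferritin, had 74.7, 21.8, 66.1 and 105 and 2890, 1182 and 5865 (5.62 ± 0.64), and the iron-oxidizing Heph had 0, 1.09, 1.97 and 6.67 and 278, 46 and 147 (5.83 ± 0.92). The groups did not overlap for any of the 4 genes. Fth1 lies on chromosome 19, where the clones were higher throughout, and remained raised with an offset for each chromosome. Of 18 tested genes for iron and other metals 6 were raised, including the metallothioneins Mt1 (1.81) and Mt2 (2.29), and the membrane protein Steap1 was lowered (-2.05). The raised count was 3 without WT/2 and 4 without WT/3, WT/4, clone 1 or clone 2, with calls lost for Ftl1 (WT/2, WT/3 or clone 1), Heph (clone 1), Mt1 (WT/2, WT/3, WT/4 or clone 2) and Mt2 (WT/2, WT/3, WT/4 or clone 2).

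Of 18 genes for the binding, synthesis and breakdown of retinoids, which pattern the face, 7 were raised and 1 lowered (median 0.74). The lowered count was 0 without WT/1, WT/4, clone 2 or clone 3. Retinol dehydrogenase Rdh10 went from 344, 120.1, 208 and 323 to 616, 1211 and 1528 (2.17 ± 0.41), the retinaldehyde dehydrogenase Aldh1a1 from 15.7, 8.74, 14.8 and 11.7 to 243, 60.1 and 107 (3.42 ± 0.54), and the retinoic acid hydroxylase Cyp26b1 from 3513, 2054, 9719 and 3264 to 17186, 17779 and 24138 (2.09 ± 0.48). Enzymes for synthesis and for breakdown thus rose together, and all clones lay above the wildtype range for these genes. Rarres1, a gene named for its response to retinoids, rose from 18 ± 13.4 to 500.2 ± 178. The raised count was 4 without WT/1 or WT/4, and calls were lost for Aldh1a1 (clone 1) and Cyp26b1 (WT/1, WT/4 or clone 3).

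Of 29 tested enzymes and regulators of xenobiotic metabolism 11 were raised and 0 lowered (median 1.41), led by Aldh3a1. The list held 147 genes, and most did not pass the filter on reads. Members nearly silent in wildtype cells, such as Aldh3a1, passed it through the clones, which adds to the raised count and the median. Others were the flavin monooxygenase Fmo5 (2.99), the cytochrome P450 Cyp2ab1 (4.50) and the aryl hydrocarbon receptor Ahr (1.42). The count fell to 4 without WT/1 or WT/4, 5 without clone 3 and 7 without WT/2 or clone 1, and calls were lost for Cyp2ab1 (clone 3) and Ahr (all but WT/2 and WT/3). Of 17 glutathione S-transferases 3 were raised and 0 lowered (1 lowered with DESeq2, 1 raised without WT/2 or WT/4, and 5 raised and 2 lowered without clone 1), and of 25 NRF2 targets the ferritin genes and Gclc were raised and 0 lowered (2 lowered without clone 1 and 1 without clone 2). Gclc, the catalytic subunit of glutathione synthesis, went from 2031, 1663, 2459 and 2033 to 6780, 7762 and 3441 (1.55 ± 0.27, adjusted p = 0.00985). Of 55 lysosomal proteins 10 were raised and 1 lowered, with a median of 0.47 and 8 to 14 raised with 1 library left out, and 0 lowered without WT/2. Gpnmb, a lysosomal membrane glycoprotein, went from 2794, 835, 3474 and 3006 to 12251, 27055 and 26464 (3.12 ± 0.48), Hexa, which degrades gangliosides, from 962, 1150, 455 and 1020 to 2079, 3236 and 4422 (1.86 ± 0.34), and Creg1 from 481 ± 65.8 to 1758 ± 569 (1.87 ± 0.23). In each case all clones lay above the wildtype range.

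**Figure D3:**
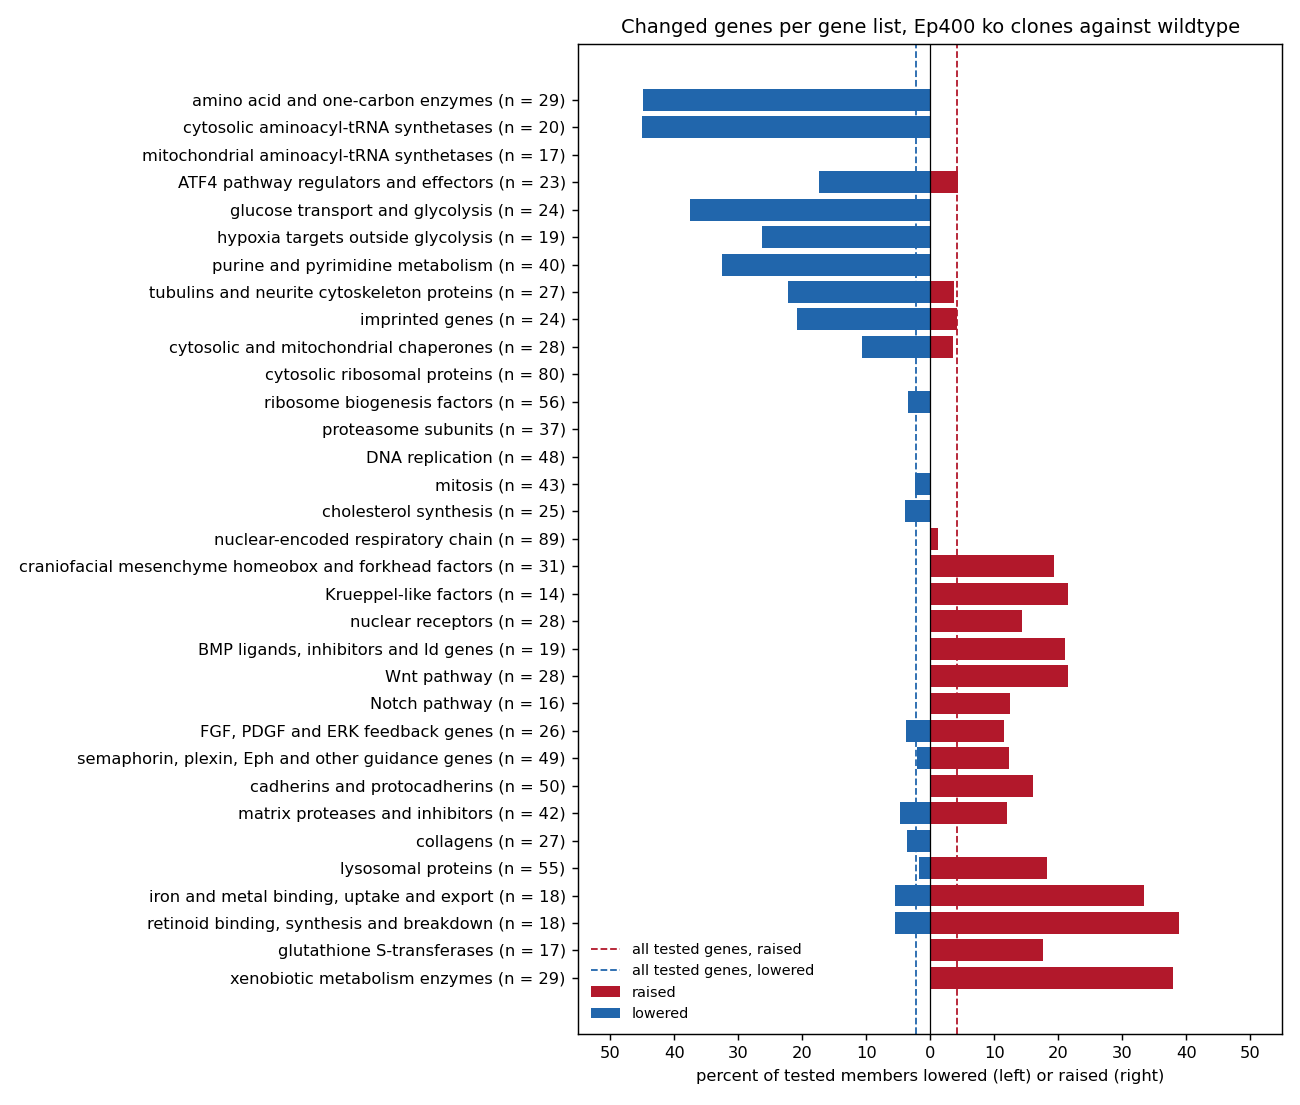
Percent of tested members of 33 gene lists that were raised (red, to the right) or lowered (blue, to the left), with the number of tested members; dashed lines give the shares over all tested genes, 4.12% and 2.3%. Lists of amino acid, tRNA synthetase, glycolytic and nucleotide genes extend to the lowered side with 0 raised members. Lists of retinoid, xenobiotic, metal and signalling genes extend mainly to the raised side. The nucleotide, chaperone, tubulin, nuclear receptor, lysosomal, metal, retinoid and xenobiotic lists were assembled after values had been seen. For them the distance from the dashed lines is a description and no independent result.

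The lowered group began with regulators that were lost from the clones. Sox11, a Sox factor of progenitor cells, had 275, 384, 1221 and 299 normalized counts in wildtype cells and no read in any clone. Against a floor of 3 counts per library it was at least 181-fold lower (adjusted p = 0.00461). WT/3 was the highest wildtype sample, and the call held without it. Bhlhe22, a neural basic helix-loop-helix factor, had 178, 287, 299.7 and 198 in wildtype cells and 0.885, 1.18 and 0 in the clones (-8.26 ± 0.63, 0.0012). Mycn, the MYC family member of crest and neural progenitors, had 148, 174, 83.8 and 108 and 16.8, 2.36 and 5.64 (-3.90 ± 0.66, 0.0091), whereas Myc itself had 4828, 6817, 5643 and 3854 and 10054, 8146 and 2676, with overlapping groups (0.40 ± 0.40, 0.52). Of 7 tested Sox factors 2 were lowered, Sox11 and its relative Sox12 (-1.16), and 0 were raised with edgeR, compared to 2 with DESeq2 and 1 without clone 1 or clone 3.

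Single matrix, junction and signalling genes were lowered alongside them. Aggrecan (Acan), a cartilage proteoglycan, had 839, 785, 210.0 and 923 normalized counts in wildtype cells and 7.08, 1.18 and 0 in the clones (-7.83 ± 0.94, adjusted p = 0.00337). The cytoskeletal adaptor Pdlim4 went from 1196, 1237, 639 and 841 to 9.74, 18.9 and 18.8 (-5.95 ± 0.40, 0.00105) and the stress kinase Mapk12 from 282, 416, 582 and 278 to 11.5, 7.08 and 2.82 (-5.74 ± 0.56, 0.00172). In these 3 genes the highest clone lay far below the lowest wildtype sample. Other genes with large changes were the claudins Cldn6 (-6.10) and Cldn9 (-4.20), components of tight junctions, Arap3 (-6.28), a GTPase-activating protein, Glipr1 (-6.29), the peptide hormone Adm2 (-5.25), the G-protein regulator Rgs8 (-5.11), the lysosomal protease Ctsh (-5.90), the transmembrane protein Tmeff1 (-3.58), the guanine nucleotide exchange factor Dock11 (-1.84), the polyamine oxidase Paox (-1.97) and the glycosyltransferase Galnt7 (-1.32). Rftn1, a lipid raft protein, had 131, 199, 9.86 and 99.2 in wildtype cells and no read in the clones, which is at least 36.5-fold lower, and WT/3 was the lowest wildtype sample.

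Other calls of lowered genes depended on single samples. The membrane protein Fam189a1 had 48.2, 118, 2072 and 47.5 in wildtype cells and 0, 0 and 5.64 in the clones, and Shisa6, an auxiliary protein of glutamate receptors, had 31.3, 142, 829 and 45.9 and 0.885, 9.43 and 4.7. WT/3 was far above the other samples in both, and both lost their calls without it. Calls were lost for Fam189a1 (all but WT/1), Shisa6 (all but WT/1 and WT/4), Rftn1 (WT/1, WT/2 or WT/4) and Ctsh (WT/2), with a highest adjusted p per gene of 0.0124 to 0.105. The abundant surface glycoprotein Cd34 had 10478, 19964, 24188 and 10910 in wildtype cells and 7774, 1654 and 2122 in the clones (-2.09 ± 0.58), with clone 1 close to the wildtype range, and it was called again in 1 of the 7 reduced fits: Cd34 (all but clone 1).

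Imprinted genes, which are expressed from a single parental allele, were among the strongest losses. Of 24 tested members 5 were lowered and 1 raised, with a median of -0.25. Changed members thus made up 25%, compared to 6.42% of all tested genes. The maternally expressed long noncoding RNA Meg3 had 412, 486, 35.5 and 311 normalized counts in wildtype cells and 0.885, 1.18 and 0.94 in the clones (-8.13 ± 1.11, adjusted p = 0.0047). Its neighbour on chromosome 12, Rian, had 919.8, 1061, 27.6 and 918 and 5.31, 11.8 and 0.94 (-6.96 ± 1.32, 0.0138). Both were nearly absent from all clones and also far lower in WT/3 than in the other wildtype samples, and both calls held without WT/3.

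The paternally expressed zinc finger gene Peg3 had 435, 359, 3.94 and 330.2 normalized counts in wildtype cells and 0, 4.72 and 0.94 in the clones, and the growth inhibitor Grb10 had 8494, 8214, 484 and 9139 and 568, 57.8 and 286. WT/3 lay within the range of the clones for both, so that the groups overlapped. The amino acid transporter Slc38a4 had 1989, 1844, 7035 and 2375 and 62.9, 177 and 344 (-4.09 ± 0.73, adjusted p = 0.0111), here with WT/3 as the highest sample. Necdin (Ndn), in contrast, was higher in clones 1 and 3 (1656, 28.3 and 831 in clones 1 to 3, 72.3 ± 28.4 in wildtype cells) and not in clone 2. Without WT/3 the list had 5 lowered and 0 raised members, without WT/1, WT/2 or WT/4 it had 3 and 0, and calls were lost for Peg3 (all but WT/3 and clone 2), Grb10 (all but WT/3 and clone 1) and Ndn (all but clone 2). Zfp57, a zinc finger protein that maintains imprints, was lowered from 521, 1032, 1222 and 553 to 186, 27.1 and 136 (-2.83 ± 0.62), and its call was lost as well: Zfp57 (WT/2 or clone 3).

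Genes of amino acid metabolism formed a large group among the lowered ones. Of 29 tested enzymes of amino acid synthesis and one-carbon metabolism 13 were lowered and 0 raised, and the median log2 fold change was -0.85. Pck2, the mitochondrial enzyme that forms phosphoenolpyruvate, had 7560, 4902, 8510 and 7156 normalized counts in wildtype cells and 2241, 1152 and 1998 in the clones (-1.97 ± 0.28, adjusted p = 0.00518). Aldh18a1, the first enzyme of proline synthesis from glutamate, had 7405, 7121, 10271 and 7491 and 2807, 1533 and 1704 (-2.0 ± 0.25, 0.00369). The alanine transaminase Gpt2 had 3848, 3022, 6033 and 4189 and 993, 870.3 and 1415 (-1.97 ± 0.27, 0.00479). Every clone was below every wildtype sample in these genes, as was the case in 17 of the 29 members and in 14.1% of all tested genes.

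Along the serine and one-carbon route, Phgdh, the entry enzyme of serine synthesis, went from 17181 ± 1117 to 5630 ± 3311 (-1.61 ± 0.35), Psph by -1.48 ± 0.20, Shmt2 by -1.38 ± 0.37, Mthfd2 by -1.91 ± 0.36 and Aldh1l2 by -2.89 ± 0.53 on the log2 scale. The last 3 of these enzymes handle folate-bound one-carbon units in mitochondria. Along the proline route, Pycr1 (-1.66) and the proline-degrading Prodh (-1.80) were lowered. Bcat1, which transaminates branched-chain amino acids, had the largest change in this list, from 4094, 4115, 4888 and 4222 to 660.5, 82.5 and 62 (-4.0 ± 0.81, adjusted p = 0.0166), with clone 1 well above clones 2 and 3 and all clones below the wildtype range. Asparagine synthetase (Asns) had 8913, 7231, 10647 and 9461 and 4933, 2137 and 1889 (-1.60 ± 0.34, adjusted p = 0.0195). The remaining lowered member was Cth (-1.53), which makes cysteine. With 1 library left out 9 (without WT/1 or WT/4) to 15 (without clone 1) members were lowered, 1 was raised without WT/4, clone 1 or clone 3, and calls were lost for Phgdh (WT/1, WT/2, WT/4 or clone 2), Shmt2 (all but clone 1 and clone 3), Asns (WT/1, WT/4 or clone 2) and Cth (WT/1 or WT/4), with a highest adjusted p per gene of 0.0556 to 0.103.

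Transporters moved less uniformly. Of 21 tested amino acid transporters 2 were lowered and 2 raised, with a median of 0.11. The glutamine transporter Slc38a1 had 2396, 2591, 5344 and 2663 normalized counts in wildtype cells and 222, 28.3 and 34.8 in the clones (-5.07 ± 0.79, adjusted p = 0.00713), and Slc38a4 was lowered as given above, whereas Slc7a2 and the lysosomal Slc36a1 (1.54) were raised. Without clone 1, 4 transporters were lowered.

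Effectors of ATF4, the transcription factor of the amino acid response, were lowered in part. Of 23 tested genes in the ATF4 list 4 were lowered and 1 raised, with a median of -0.77. The pseudokinase Trib3 had 1932, 603, 2446 and 1676 normalized counts in wildtype cells and 457, 204 and 281 in the clones (-2.40 ± 0.48), the mTORC1 inhibitor Ddit4 2817, 2821, 5251 and 1991 and 614, 609.7 and 1208 (-1.99 ± 0.39), and the stress protein Nupr1 1179, 993, 2284 and 1024 and 135, 427 and 211 (-2.41 ± 0.46). Here too every clone was below every wildtype sample. Jdp2, a leucine zipper repressor, was lowered too (-1.32), and the lipoprotein receptor Vldlr was raised (1.12). The transcript of Atf4 had 19312, 16768, 23826 and 17016 and 13289, 17596 and 7304, with overlapping groups and no change that passed the test (-0.60 ± 0.29, adjusted p = 0.188). Eif4ebp1, the translation inhibitor, was at -0.88 ± 0.30 (0.0868). Calls were lost for Trib3 (clone 3) and Vldlr (WT/2).

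Of 20 cytosolic aminoacyl-tRNA synthetases, which charge tRNAs with their amino acids, 9 were lowered and 0 raised, with a median of -0.99. In 16 of the 20 all clones lay below the wildtype range, compared to 14.1% of all tested genes. The synthetases for leucine (Lars, -1.32 ± 0.22, adjusted p = 0.00855), serine (Sars, -1.20 ± 0.17, 0.00593) and isoleucine (Iars, -1.22 ± 0.24, 0.0153) were called in all fits with 1 library left out. Lars went from 9985, 7615, 11655 and 11100 to 5117, 3821 and 3176, with clone 3 the lowest. Those for glycine (Gars, -1.24), asparagine (Nars, -1.08), threonine (Tars, -1.04), methionine (Mars, -1.11), cysteine (Cars, -1.05) and valine (Vars, -1.32) were lowered too, and calls were lost for Gars (WT/4), Nars (clone 3), Tars (all but WT/2 and clone 1), Mars (all but clone 1), Cars (all but clone 1) and Vars (all but clone 1). The count was 4 without WT/4 or clone 3, 5 without WT/1, WT/3 or clone 2 and 11 without clone 1. The alanine enzyme (Aars) just missed the fold limit (adjusted p = 0.049). Of 17 mitochondrial synthetases, 0 were called raised or lowered by edgeR, DESeq2 or limma-voom, 5 had an unadjusted p under 0.05 in the lower direction, 1 was lowered without clone 1, and the median was -0.19.

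**Figure D4:**
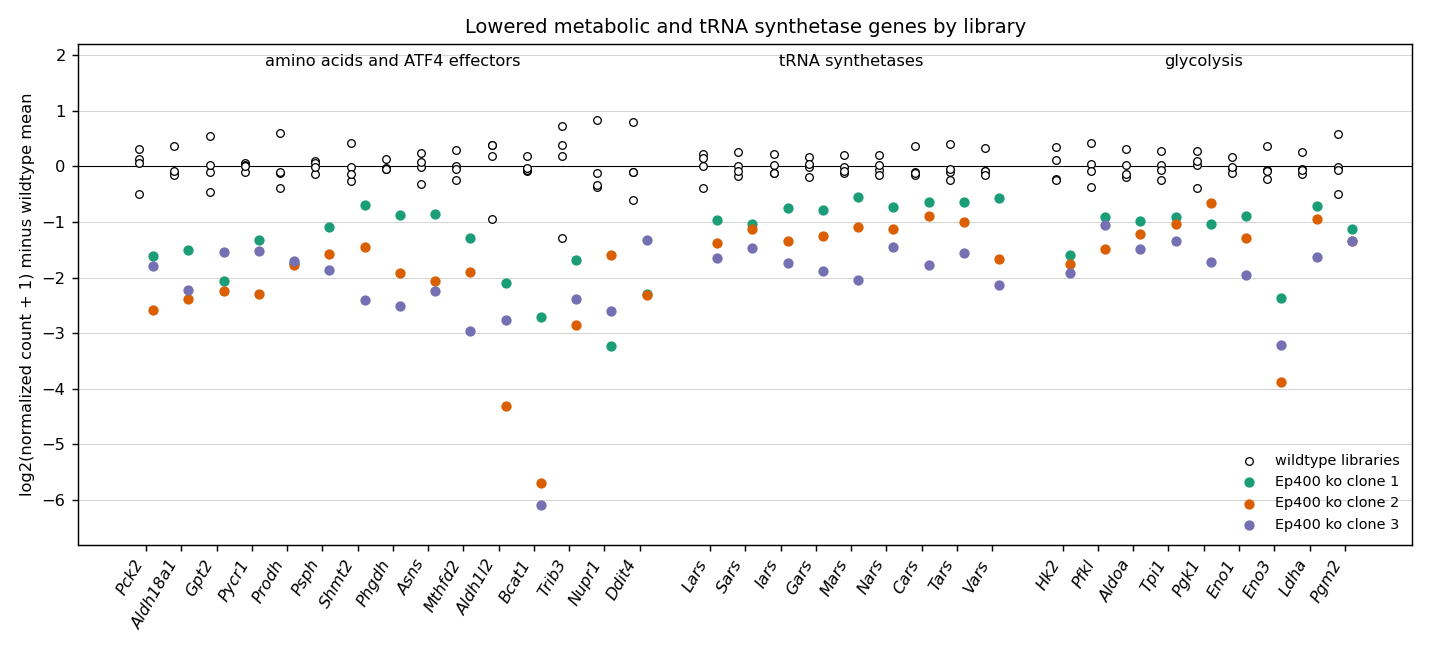
Log2 normalized count (plus 1) of each library minus the wildtype mean for 33 lowered genes of amino acid metabolism and the ATF4 list, of tRNA synthetases and of glycolysis; open circles are wildtype samples and coloured circles are clones. All clones lie below the wildtype samples for every gene, and Bcat1 shows the lowest values. The genes were picked from those called lowered, of which 315 of 318 have this position, so it is a description and no independent result.

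A sequence element was more frequent in the promoters of lowered than of raised genes. RefSeq promoter windows (GRCm38.p6, from upstream of the annotated start to shortly behind it) were matched to 10140 of the tested genes, including 432 raised and 244 lowered ones, and searched on both strands for 13 motifs. The composite element of ATF4 and C/EBP factors, TGATGNAA, occurred in 1.62% of the windows of raised genes, 6.97% of those of lowered genes and 2.19% of all. Among the lowered genes of the amino acid, ATF4 and tRNA synthetase lists it occurred in 8 of 19 windows (42.1%). These lists hold known targets of ATF4, so that the share is a description and not an independent result. The windows of the 8 genes are shown over 60 bases each, on the strand of the gene and with the element in capitals, because they show its position next to the start. It is read on the opposite strand in all but Pycr1 and Asns.
Pck2, chr14:55540137-55540196 (+): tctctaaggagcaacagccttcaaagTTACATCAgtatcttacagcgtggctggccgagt
Pycr1, chr11:120643818-120643877 (-): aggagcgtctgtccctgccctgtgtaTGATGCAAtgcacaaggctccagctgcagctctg
Nupr1, chr7:126625547-126625606 (-): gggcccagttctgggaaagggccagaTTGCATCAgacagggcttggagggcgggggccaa
Iars, chr13:49682111-49682170 (+): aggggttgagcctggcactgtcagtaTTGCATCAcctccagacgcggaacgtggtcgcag
Trib3, chr2:152344013-152344072 (-): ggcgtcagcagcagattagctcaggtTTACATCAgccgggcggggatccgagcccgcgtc
Gars, chr6:55037945-55038004 (+): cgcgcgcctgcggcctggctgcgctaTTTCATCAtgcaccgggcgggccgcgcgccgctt
Asns, chr6:7693199-7693258 (-): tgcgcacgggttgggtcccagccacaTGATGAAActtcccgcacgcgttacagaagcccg
Tars, chr15:11399640-11399699 (-): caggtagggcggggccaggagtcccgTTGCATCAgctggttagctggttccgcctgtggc

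Relative to the annotated start the element began at position -103 in Pck2 and Pycr1, -110 in Nupr1, -30 in Gars, -23 in Asns and -15 in Tars, and behind the start at 7 in Iars and 14 in Trib3. In relative terms, none of the other 12 motifs differed as much between lowered and raised genes. The E-box of MYC and MAX (CACGTG) was in 8.33% of raised, 12.3% of lowered and 10.2% of all windows, the core of the hypoxia response element (ACGTG, which lies within that E-box) in 22.2%, 24.6% and 25.9%, and the core of the antioxidant response element (TGACNNNGC) in 12.3%, 16% and 14.8%. The cAMP response element (TGACGTCA) was in 1.85%, 3.69% and 3.33%, the AP-1 element (TGANTCA) in 5.79%, 7.38% and 5.07%, the NRF1 element in 0.69%, 0.82% and 2.09%, and the interferon-stimulated response element in 1.85%, 1.64% and 2.85%. The E-box of SNAI, TWIST and ZEB factors (CAGGTG) was in 19%, 19.3% and 16.5%, the TEAD element (GGAATG) in 13.7%, 13.9% and 11.9%, the SP1 box (GGGCGG) in 61.3%, 70.5% and 65.5%, the CCAAT box (CCAAT) in 37.3%, 38.9% and 39.1% and the TATA box (TATAAA) in 7.18%, 7.38% and 7%. CpG content was lower in both groups, with a median observed-over-expected ratio of 0.71 in raised and 0.7 in lowered genes compared to 0.77 in all. A match to a motif is a description of these letters and no evidence of binding.

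**Figure D5:**
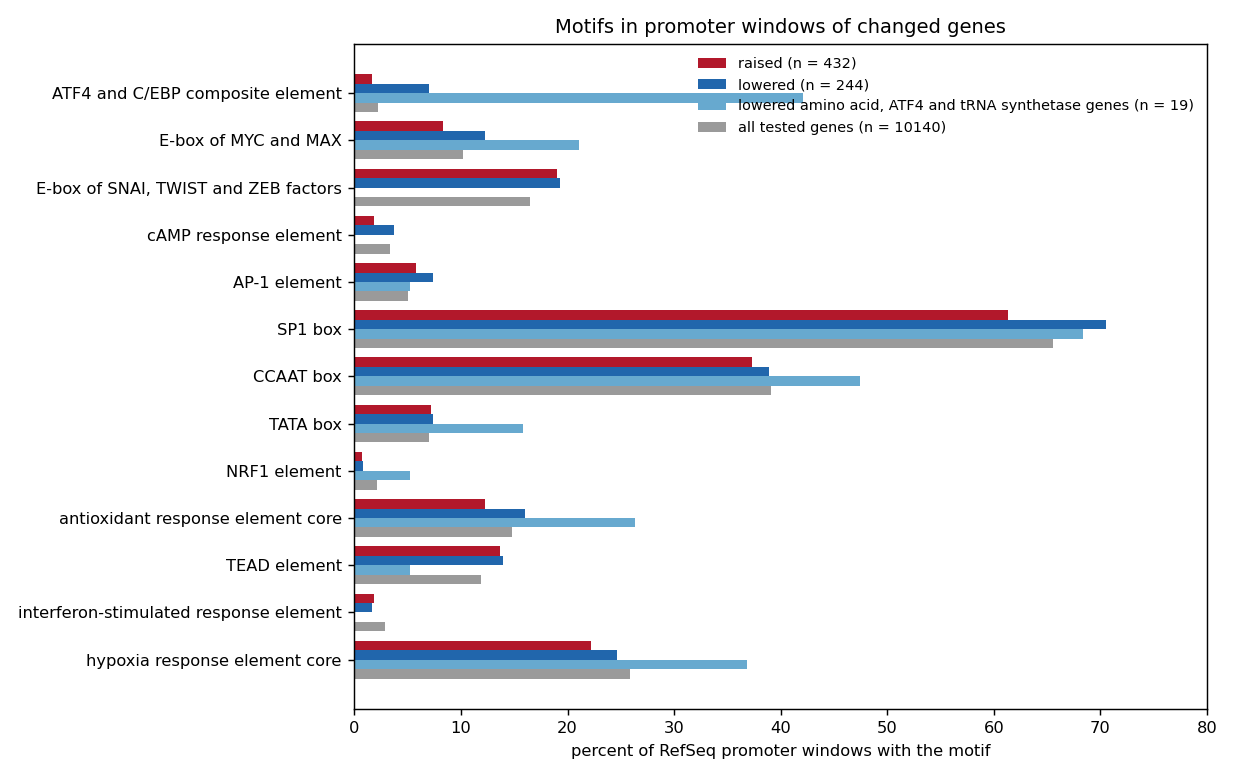
Percent of RefSeq promoter windows that hold each of 13 motifs on either strand, for raised genes, lowered genes, the 19 lowered genes of amino acid, ATF4 and tRNA synthetase lists, and all 10140 tested genes with a window. The composite ATF4 and C/EBP element stands at 42.1% in the 19 genes and 2.19% in all.

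Genes of several steps of glycolysis were lowered. Of 24 tested genes for glucose transport and glycolysis 9 were lowered and 0 raised, with a median of -0.86. All clones were below the wildtype range in 15, compared to 14.1% of all tested genes. Hk2, the hexokinase that traps glucose, had 1684, 2497, 2132 and 1654 normalized counts in wildtype cells and 653, 579 and 521 in the clones (-1.77 ± 0.20, adjusted p = 0.00265). Eno3, an enolase isoform, had 3674, 4930, 3288 and 3641 and 743, 259 and 411 (-3.04 ± 0.36, 0.0032), and the abundant Eno1 had 51194, 58125, 48008 and 51278 and 28144, 21166 and 13476 (-1.32 ± 0.25, 0.0131). Aldolase (Aldoa) went from 42764, 52197, 36608 and 38158 to 21373, 18017 and 14957 (-1.23 ± 0.20). Clone 3 was the lowest clone for Hk2, Eno1 and Aldoa.

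Phosphofructokinase Pfkl (-1.16), triose phosphate isomerase Tpi1 (-1.10), phosphoglycerate kinase Pgk1 (-1.09), lactate dehydrogenase Ldha (-1.05) and phosphoglucomutase Pgm2 (-1.33) were the other lowered members. The glucose transporter Slc2a1 did not pass the limits (-0.46 ± 0.17, adjusted p = 0.112). The count was 6 without WT/2 or clone 3, 1 member was raised without WT/3, and calls were lost for Tpi1 (WT/2 or clone 3), Pgk1 (all but WT/3 and clone 2) and Ldha (WT/1, WT/2, WT/4 or clone 3). Pgk1 lies on the X chromosome, whose genes were lower in clone 1 (median log2 difference -0.32). Abundant glycolytic genes have many processed pseudogenes, and reads may be split between them.

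Hypoxia targets outside glycolysis were lowered in 5 of 19 tested members, with 0 raised (1 with DESeq2, and 1 with edgeR without WT/3) and a median of -0.77. The carbonic anhydrase Car12 had 1224, 1351, 598 and 1358 and 196, 199 and 134 (-2.68 ± 0.33, adjusted p = 0.00352) and the collagen prolyl hydroxylase P4ha2 was at -1.51 ± 0.18 (0.00337). P4ha1 (-1.05), Plod2 (-1.34) and Loxl2 (-2.32), which also modify collagen, were less stable: P4ha1 (all but WT/3 and clone 3), Plod2 (all but WT/3) and Loxl2 (all but clone 2 and clone 3). The count was then 2 without WT/1, WT/2 or WT/4 and 3 without clone 1. Vegfa did not pass the limits (-0.63 ± 0.25, adjusted p = 0.124).

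Some genes of nucleotide synthesis, chaperones and the neurite cytoskeleton were among the lowered ones, in lists assembled after values had been seen. Of 40 genes for purine and pyrimidine metabolism 13 were lowered and 0 raised (median -0.64). Cad, which starts pyrimidine synthesis, went from 9804, 8700, 10702 and 9853 to 4858, 3025 and 2360 (-1.52 ± 0.24), and Gart, of purine synthesis, from 8812, 9571, 5989 and 8898 to 3862, 3007 and 2040 (-1.49 ± 0.25), while the adenylate kinase Ak4 fell the most (-4.44). The count was 7 without WT/2 or clone 3 and 8 without WT/1 or clone 2. Of 28 cytosolic and mitochondrial chaperones 3 were lowered and 1 raised (median -0.67): the HSP90 partner Fkbp4 (-1.36), the mitochondrial Hspd1 (-1.02) and the chaperonin subunit Cct3 (-1.02) were lowered, and the small heat shock protein Cryab was raised (2.12). Calls were lost for Hspd1 (all but WT/3 and clone 1) and Cct3 (WT/1, WT/2, WT/4 or clone 3); the lowered count was 1 without WT/1, WT/2, WT/4 or clone 3 and 7 without clone 1.

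Of 27 tubulins and neurite cytoskeleton proteins 6 were lowered and 1 raised (median -0.51), and 5 to 9 were lowered with 1 library left out. Tuba1a, an alpha-tubulin of neural progenitors, had 41685, 35513, 26379 and 39241 normalized counts in wildtype cells and 5297, 8697 and 7329 in the clones (-2.33 ± 0.24, adjusted p = 0.00223). Map1b, a microtubule-associated protein, had 10595, 9670, 6343 and 12694 and 1867, 2144 and 3399 (-1.99 ± 0.29, 0.00611), and the actin-binding Dbn1 had 2223, 4848, 2118 and 2009 and 239, 356 and 714 (-2.68 ± 0.47, 0.0106). In all of them the clones were below the wildtype range. Tubb3, which marks neurons, was raised instead (1.83), and this call was lost often: Tubb3 (all but clone 3). Tuba1a is nearly identical to other alpha-tubulin genes in its coding sequence.

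Ribosomal, proteasomal and cell cycle genes held few or no calls. Of 80 cytosolic ribosomal proteins 0 were raised or lowered by edgeR, DESeq2 or limma-voom, and the median was -0.41. However, 37 had an unadjusted p under 0.05 in the lower direction. In 32 all clones lay below the wildtype range, compared to 14.1% of all tested genes. Of 48 DNA replication genes 0 were called by any of these tools, with 7 at an unadjusted p under 0.05 in the lower direction and a median of -0.34, although 3 were lowered without clone 1. Of 37 proteasome subunits 0 were called by any of the tools, with 1 at an unadjusted p under 0.05 in the higher and 19 in the lower direction and a median of -0.42. Of 63 translation factors only Eif5a was lowered with edgeR, compared to 2 with limma-voom and 22 at an unadjusted p under 0.05 in the lower direction (59531, 63531, 53650 and 52670 in wildtype cells and 36673, 29532 and 15727 in the clones, -1.07 ± 0.27), and of 56 ribosome biogenesis factors Mybbp1a (-1.12) and Rrp1b (-1.03) were. These calls were among the least stable: they were lost for Eif5a (all but clone 1), Mybbp1a (all but clone 1) and Rrp1b (all but clone 1), whereas 6 biogenesis factors were lowered without clone 1.

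Of 43 mitosis genes 1 was lowered, the gene for separase (log2 fold change -1.05), and the median was -0.39. Its call was lost often, Espl1 (all but clone 1), and 3 mitosis genes were lowered without clone 1. Among 22 G1 cyclins, kinases and inhibitors, the kinase gene Cdk6 was lowered (-1.32 ± 0.29) and the CDK inhibitor Cdkn2c raised (1.46 ± 0.27). The list had 2 lowered members without WT/3 or clone 1, and the former call was lost in most fits, Cdk6 (all but WT/3 and clone 1). Of 24 p53 targets 1 was lowered, Plk2 (-1.61), and 0 raised (1 with DESeq2), compared to 2 lowered without clone 1 or clone 3 and 2 raised without clone 2. The RNA-binding Igf2bp1, from 2926, 3126, 3639 and 3275 to 1639, 1660 and 1449 (-1.03 ± 0.13), and the growth regulator Trim71 (-1.55) were lowered out of 7 tested genes related to Lin28, Hmga2 and Igf2bp, 1 was raised without clone 3, and a call was lost for Igf2bp1 (WT/3 or clone 3). Of 89 nuclear-encoded respiratory chain genes 1 was raised and 0 were lowered (13 at an unadjusted p under 0.05), with a median of -0.07. It was the complex I subunit Ndufb2 (1.11), at a low level and called again only without clone 1: Ndufb2 (all but clone 1). Of 35 interferon-stimulated and antigen presentation genes 0 were called by edgeR or limma-voom and 3 were raised with DESeq2. Their median log2 fold change was 1.21, compared to 0.04 for all tested genes, and 10 were higher at an unadjusted p under 0.05. In 0 members did all clones lie above the wildtype range, compared to 16.1% of all tested genes. Raised members numbered 6 without clone 1 and 2 without clone 2, and 2 were lowered without clone 3.

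Markers of other cell types were absent in part. Of 20 neuron markers 14 stayed under 10 normalized counts in every library, as did 10 of 12 skeletal muscle, 6 of 8 melanocyte, 7 of 13 epithelial, 5 of 11 endothelial, 5 of 17 chondrocyte, 5 of 14 osteoblast, 4 of 16 smooth muscle and 2 of 12 glial markers. Others were well expressed, such as the adhesion molecule Ncam1 of the neuron list (1337 to 3279). The neuronal Rbfox3 and Dcx, the melanocyte enzymes Tyr and Dct, the cartilage collagen Col9a1, the endothelial Tie1 and Cldn5, the muscle factors Myod1 and Myf5 and the pluripotency factor Pou5f1 had no read in any library. The summed normalized counts of 16 smooth muscle markers were 45901 to 60236 in wildtype libraries and 40604 to 57891 in the clones. For 14 osteoblast markers they were 315602 to 451140 and 410054 to 624042, and for 12 Schwann cell and glia markers 2258 to 3158 and 2855 to 8290. The sums of 20 neuron markers were 2390 to 3519 and 1846 to 2537, and those of 17 chondrocyte markers 3712 to 4208 and 1851 to 3800. These ranges overlapped, whereas those of 11 endothelial markers (3336 to 6781 and 2524 to 3230) and 13 epithelial markers (217 to 429 and 102 to 196) did not and were lower in the clones. A few abundant members made up most of several sums: Tpm1 and Cald1 for smooth muscle, Spp1, Col1a1 and Col1a2 for osteoblasts, Pmp22 for glia and Ncam1 for neurons. Those sums thus follow these genes more than the whole lists. The part of other cell types in the changed genes was not tested. In bulk RNA, fewer cells of a type and less RNA per cell cannot be told apart.

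Single members of these lists changed. The bone matrix protein Dmp1 was raised, from 80.8, 7.64, 205 and 56.7 to 1594, 1534 and 1286 (4.07 ± 0.76), with all clones above the wildtype range. In the endothelial list, Flt1, a receptor of VEGF, was lowered from 6343, 6495, 3251 and 6701 to 2915, 3156 and 2428 (-1.01 ± 0.26) and made up most of the sum. WT/3 was close to the clones, and the call was kept in the reduced fits only without WT/3: Flt1 (all but WT/3). In the glial list the neuregulin receptor Erbb3 was raised (1.35) and the myelin protein Mbp lowered (-3.26), with calls lost for Erbb3 (all but clone 2) and Mbp (WT/1).

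Raised and lowered genes were not spread evenly over chromosomes. Chromosome counts and medians cover only tested genes above a minimum mean count. Their base thus differs from that of the shares over all 13836 tested genes, 4.12% raised and 2.3% lowered. Of 414 such genes on chromosome 19, 40 (9.66%) were raised and 4 (0.97%) lowered, next to the higher median of that chromosome in all clones. Of 464 on chromosome 15, 16 (3.45%) were raised and 29 (6.25%) lowered, with chromosome medians of -0.13, -0.1 and -0.13. Chromosome 11 stood at -0.19, -0.2 and -0.25, and 26 (2.71%) of its 960 genes above that mean were raised. With an offset for each chromosome and library, 542 genes were raised and 287 lowered. The part of chromosome copy number in these genes was not tested. Of the raised genes 194, and of the lowered genes 110, overlap an annotated gene on the other strand, where reads can be mixed unless counting used strand. The library kit marks strand, but the strand setting of the counting is not given in the sources used here. This applies among others to Ryr3, Timp3, Dll1, Cd55 and Pcdh17 among the raised genes and to Pck2, Bcat1, Aldoa and Glipr1 among the lowered ones. Paox overlaps Echs1, an enzyme of fatty acid breakdown that was lowered as well (-1.01; Echs1 (clone 1 or clone 3)), and Ryr3 overlaps Aven, which did not pass the test (0.56, adjusted p = 0.116).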

How the data were processed

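RNA from 4 wildtype samples and 3 Ep400 ko clones of O9-1 cells was sequenced from stranded libraries of polyadenylated RNA. Per the submitters' processing notes, reads were demultiplexed with bcl2fastq (2.20), aligned to mm10 with STAR (2.7.3) and tested with DESeq2 (1.36.0) in R (4.2.1). The counting program, its strand setting and its annotation are not given in the sources used here. The authors deposited whole-number read counts per gene, which were used as they are, and normalized tables of their own, which were not used.

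After filterByExpr and TMM scaling, the 7 libraries were compared by the quasi-likelihood test of edgeR (4.0.16, R 4.3.3), with the group as the single term. Normalized counts are counts divided by the effective library size and multiplied by its mean. The SE of a log2 fold change is its size divided by the square root of F. Fitted log2 values carry the default prior count of edgeR, and a prior count of 2 was used for the chromosome medians and offsets. Changed genes passed an adjusted p of 0.05, an absolute log2 fold change of 1 and a mean of more than 100 normalized counts in 1 group. Groups were taken from the genotype in the labels. Where a group had no reads, a floor of 3 counts per library gave a lower bound, which covers counting error only. Totals of at least 30968945 reads per library leave counting error small beside the spread between samples (edgeR's biological coefficient of variation was 0.33). Replicates of a group differed by far more than sampling noise, at a chi-square of 28.1 to 257 for each degree of freedom, so all were kept as separate samples. The scripts were tested on simulated data.

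The text names members of the complex, in each direction the 15 largest changes in protein-coding genes without overlap of the groups, the 10 largest differences in mean and the 10 smallest p, and up to 6 changed members per list, or the member with the smallest p where none changed. Of these 219 genes a selection is printed. Chosen after their values were seen were Aars, Ahr, Ak4, Aldh1a1, Aldh1l2, Apcdd1, Asns, Atf4, Aven, Bcat1, Cad, Cars, Cct3, Creg1, Cryab, Cth, Cyp26b1, Cyp2ab1, Dbn1, Echs1, Eif4ebp1, Fkbp4, Fmo5, Frzb, Gart, Gpnmb, Heph, Hexa, Map1b, Mars, Mt1, Mt2, Mthfd2, Myc, Ncam1, Nr2f1, Pde8b, Pfkl, Phgdh, Rarres1, Rdh10, Scara5, Serpinb1a, Shmt2, Slc2a1, Slc2a13, Slc6a4, Slit2, Snai2, Sox9, Steap1, Thpo, Thrb, Twist1, Vars, Vdr and Vegfa. The 67 gene lists and 13 motifs were written from general knowledge, and the genes, lists and comparison were chosen with earlier results of these data known. A further 11 lists were added after values had been seen. No set test was run. Promoter sequences are the first RefSeq window (GRCm38.p6) per gene. Symbols that a spreadsheet had turned into dates were left unnamed, and a few genes are not reported here.

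Alternatives were other scalings (DESeq2's size factors, or library size alone), DESeq2 (1.42.0), limma-voom (3.58.1), no filter, no limit on the mean, unadjusted p, a fit of all 10 libraries, a replicate block, a test against the fold limit, an offset per chromosome, and leaving out each library in turn.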

Additional observations from a re-analysis of the deposited data

Results flagged for a closer look

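In 30 of the 218 genes named here and with a group of 4 wildtype samples, 1 wildtype sample lay apart from the other 3 by Dixon's test at the 95% level. Chance gives about 1 such gene in 20. Of these genes 20 concerned WT/3, 8 WT/2, 1 WT/1 and 1 WT/4. The group of 3 clones is too small for this test. All values are normalized counts, and the explanations for them were not tested.

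WT/3 was the highest wildtype sample for Aldh18a1 (10271, others 7121 to 7491), Bcat1 (4888, others 4094 to 4222), Cars (8489, others 5937 to 6170), Cldn6 (451, others 131 to 164), Espl1 (4369, others 3286 to 3372) and Fam189a1 (2072, others 47.5 to 118). WT/3 was also the highest wildtype sample for Glipr1 (1386, others 374 to 448), Itga1 (91.7, others 20.7 to 28.4), Nupr1 (2284, others 993 to 1179), Rgs8 (962, others 204 to 264), Sfrp1 (301, others 105 to 129) and Shisa6 (829, others 31.3 to 142). WT/3 was also the highest wildtype sample for Slc38a1 (5344, others 2396 to 2663), Slc38a4 (7035, others 1844 to 2375), Sox11 (1221, others 275 to 384) and Vars (21205, others 15042 to 15949). WT/3 was the lowest wildtype sample for Flt1 (3251, others 6343 to 6701), Grb10 (484, others 8214 to 9139), Rian (27.6, others 918 to 1061) and Timp2 (18029, others 23451 to 24325). WT/2 was the highest wildtype sample for Ctsh (180.0, others 72 to 85.1), Dbn1 (4848, others 2009 to 2223), Phgdh (18838, others 16496 to 16861), Plod2 (2404, others 982 to 1064) and Steap1 (1957, others 1101 to 1118). WT/2 was the lowest wildtype sample for Fzd3 (32.8, others 62.7 to 66.1), Pde7b (0, others 5.84 to 6.03) and Slc36a1 (399, others 700.0 to 729). WT/1 was the lowest wildtype sample for Echs1 (2790, others 2915 to 2930). WT/4 was the highest wildtype sample for Galnt7 (3509, others 3001 to 3075). Without WT/3, calls of Fam189a1, Shisa6, Vars, Cars and Espl1 were lost, whereas those of Sox11, Slc38a1, Slc38a4, Rian and Aldh18a1 held.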

How the results depend on the processing

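The fold change of Ep400 kept its direction and passed the threshold under all 15 alternatives run for it, with log2 values between -1.50 and -1.40. Of 888 changed genes, 868 also passed in DESeq2, which called 1178 (757 raised and 421 lowered). Counts of changed genes lay between 629 (1 fit of all 10 libraries, 392 raised and 237 lowered) and 1276 (unadjusted p) under the alternatives other than the following. The test against a log2 fold change of 1 called 206 genes, 141 raised and 65 lowered, since it asks for more than a fold beyond the limit. With unadjusted p, 857 genes were raised. Leaving out 1 library gave 533 to 1021 changed, 318 to 632 raised and 205 to 389 lowered genes, which is fewer samples by construction, and the lowest counts came from leaving out a wildtype sample.

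The replicate numbers of clones and wildtype samples do not pair them: deviations of samples with the same number correlated at -0.025, 0.00392 and 0.1, and 0 of 3 clones correlated best with the wildtype sample of its own number. The replicate block left 158 changed genes, 92 raised and 66 lowered, with fewer degrees of freedom by construction. Among single genes the direction of 0 reversed. An adjusted p of at most 0.05 was lost in 303 of the fits by gene that left out 1 library. It was lost in 144 genes under the block, 41 in the fit of 10 libraries and 19 without the filter. The chromosome offset ended it in 16 genes, limma-voom in 13 and DESeq2's size factors in 1. These counts ask for the adjusted p alone, without the fold and mean limits of the calls. The cause of these losses was not tested. Changes under 2-fold and genes under 100 normalized counts are outside the calls, and with 3 clones a difference between clones cannot be told apart from a difference between knockouts.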

Other observations

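Of 173 tested solute carriers 8 were raised and 6 lowered, with a median log2 fold change of 0.19. This share of 8.09% lay near the 6.42% of all tested genes that changed. Slc25a23, a mitochondrial carrier of ATP and phosphate, went from 44.6, 86.3, 52.3 and 50.9 to 662, 442 and 1084 normalized counts (3.64 ± 0.38), and the inositol transporter Slc2a13 from 45.8, 42.6, 94.7 and 33.4 to 236, 279 and 521 (2.67 ± 0.45). The serotonin transporter Slc6a4 was lowered, from 446, 234, 108 and 412 to 5.31, 20 and 34.8 (-3.90 ± 0.74), as was the zinc transporter Slc39a10 (-1.56). All of these calls held with any 1 library left out. In a list assembled after values had been seen, 2 of 17 phosphodiesterases were raised, Pde7b and the likewise cAMP-specific Pde8b, which went from 66.3, 33.9, 28.6 and 72.6 to 2542, 478 and 1566 (4.92 ± 0.59), and 0 lowered.

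Of 31 integrins and laminins 2 were raised and 1 lowered (9.68% changed, compared to 6.42% of all tested genes). Itgb5 rose from 1894, 1632, 1542 and 1787 to 3738, 4488 and 6830 (1.55 ± 0.21), and Itga3, which pairs with another beta chain to bind laminin, fell from 5000, 7445, 5633 and 4793 to 2398, 1103 and 1332 (-1.83 ± 0.29). The third was Itga1, which was raised, and leaving out 1 library ended its call in most cases: Itga1 (all but WT/3). Of 16 serpins 4 were raised and 0 lowered, in a list assembled after values had been seen. Serpinb1a, an inhibitor of neutrophil proteases, went from 51.8, 19.7, 41.4 and 54.2 to 432, 393 and 817 (3.71 ± 0.43). The count of serpins was 2 without WT/1, WT/2, WT/4 or clone 3, and 1 was lowered without clone 3.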
